A study of Mus musculus with 6 samples.

Results

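Insulin-like growth factors (IGFs) are small secreted hormones that promote growth and cell survival, and the genes described here encode their ligands, receptors and binding proteins. The 10 genes are the ligands *Igf1* and *Igf2*, the receptors *Igf1r* and *Igf2r*, and the binding proteins *Igfbp1*, *Igfbp2*, *Igfbp3*, *Igfbp4*, *Igfbp5* and *Igfbp6*. They were chosen by name and are 10 of the 20284 gene symbols matched on the arrays, with 14 probes on 27 spots. The mice were immature female CD-1 mice, labelled as 24 days old, that received fluorene-9-bisphenol (BHPF) at 50 mg kg-1 bw d-1 or peanut oil alone by gavage for 3 days. Liver, ovary and uterus of each treatment gave 6 groups, and each group had 1 one-colour array hybridized with RNA pooled from 3 mice. The paper describes taking all 3 organs from the mice of each treatment group, so the 3 arrays of a treatment may share mice. The 6 arrays shared 1 slide and 1 scan, and controls filled slide row 1 while BHPF filled row 2, so position and treatment cannot be told apart. Each tissue filled a slide column of its own, so column and tissue cannot be told apart either. With 1 array per group no p value can be given for BHPF within a tissue.

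A level is the log2 intensity of a probe minus the 75th percentile of its array, so that 0 is the 75th percentile, and a ratio is the level with BHPF minus the control level. Levels are given as control and then BHPF. A spot well above background is one that the scanner software called so, and the share of probes called so was 63.9% and 61.3% in liver, 74.5% and 69.3% in ovary, and 68.9% and 64.7% in uterus. The 75th percentile was at an intensity of 3443 and 3292 in liver, 7499.7 and 6389 in ovary, and 5335 and 4530.2 in uterus. The lowest level well above background was −5.62 and −4.91 in liver, −6.33 and −5.74 in ovary, and −5.80 and −5.07 in uterus, so the *Igf2* and *Igfbp1* probes could be read to a lower level on the control arrays. No probe was saturated. Where only 1 array of a tissue gave a level well above background, the ratio is a bound. It was then taken to whichever was higher on the dim array, the probe itself or the lowest level that counts as well above background. Probes repeated on at least 5 spots gave a spot noise with an SD of 0.13 for a ratio, which covers the spots of an array and does not cover mice. Of the 14 member probes 9 had 1 spot.

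The tissue labels were set against marker genes before the members were read. The oocyte markers (5 genes) summed to an intensity, relative to the 75th percentile, of 28.6 and 28.9 in ovary, against 0.114 and 0.146 in liver and 0.622 and 0.634 in uterus. *Emx2*, *Hoxa10* and *Hoxa11* summed to 11.6 and 12.0 in uterus and to 1.61 and 1.72 in ovary, and the smooth muscle markers (6 genes) to 92.1 and 97.7 in uterus and 44.6 and 46.8 in ovary. The granulosa cell and uterine epithelium lists set their own tissue apart less. The granulosa cell markers (6 genes) summed to 58.2 and 59.1 in ovary, 40.8 and 42.4 in liver and 21.7 and 25.8 in uterus, as *Foxl2* was bright in every tissue, while *Fshr* and *Amh* were well above background in ovary alone. The uterine epithelium markers (4 genes), with *Krt18* the most intense, summed to 24.6 and 25.5 in uterus and to 33.2 and 35.1 in liver. The hepatocyte markers (10 genes) summed to 394 and 383 in liver and 7.26 and 8.76 in ovary. In uterus they summed to 2.57 in control and 37.1 with BHPF, so the BHPF uterus array carried RNA of hepatocyte markers at a far higher level than the control uterus array. The authors' table of log2 values has the scanner values of the uterus arrays under exchanged headings, and the direction of every uterine ratio below depends on this. The labels of the scanner files were used. RNA of whole tissue was measured, so fewer cells of a type and less RNA per cell cannot be told apart.

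IGF-I and IGF-II act through the type 1 receptor, a tyrosine kinase related to the insulin receptor. The type 2 receptor binds IGF-II and carries it to lysosomes, and also sorts enzymes that bear mannose 6-phosphate. The binding proteins hold most IGF in blood and tissue fluid, and proteases that cut them set the ligand free. Liver makes most circulating IGF-I under growth hormone, while ovary and uterus make IGF for local use.

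**Figure D1:**
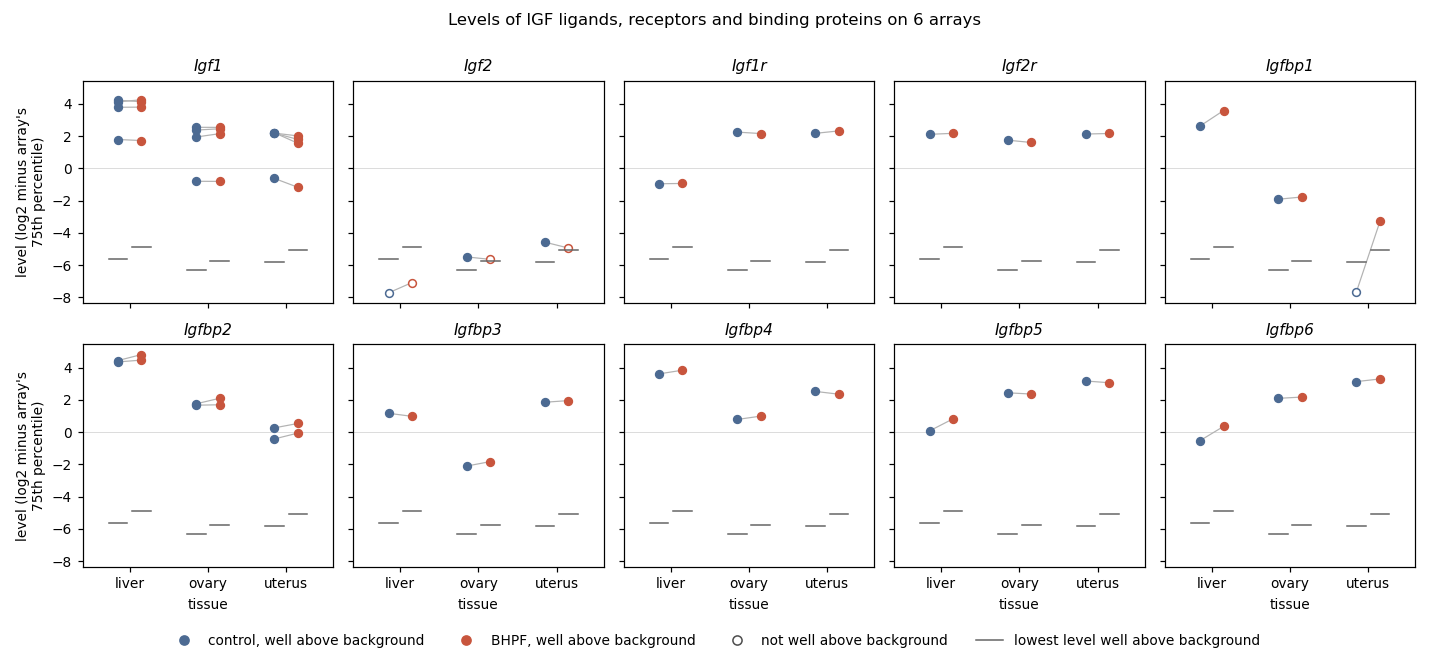
Level of each of the 10 genes on the 6 arrays. Open circles were not well above background, and the grey line is the lowest level well above background on that array.

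*Igf1*, the growth hormone-dependent ligand, was read by 4 probes, whose mean level was 3.48 and 3.47 in liver, 1.51 and 1.58 in ovary, and 1.48 and 1.04 in uterus. Both liver arrays lay above all 4 arrays of the other tissues. In a linear model of all 6 arrays with tissue and BHPF as terms, fitted with limma on 38429 features (genes, and probes without a symbol) with 2 residual degrees of freedom, *Igf1* was 3.81-fold higher in liver than in ovary (adjusted p = 0.00338) and 4.64-fold higher than in uterus (adjusted p = 0.00268). The error of that model is the spread of the BHPF ratio between tissues, so its p values do not measure the spread between mice. The log2 difference of *Igf1* between ovary and uterus was 0.28 (adjusted p = 0.324). The *Igf1* gene therefore had its highest mRNA level in the organ that supplies IGF-I to the blood.

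*Igf2*, the ligand of fetal growth, had a level of −7.72 and −7.09 in liver, −5.49 and −5.65 in ovary, and −4.58 and −4.94 in uterus, and was well above background only on the control arrays of ovary and uterus. In mice the gene is transcribed from the paternal allele and is turned down in most organs after birth, and its mRNA was not detected in liver and was at the edge of detection in ovary and uterus of these immature mice. Between the control arrays, as bounds without a test, *Igf2* was at least 2.06-fold lower in liver than in uterus and at least 1.09-fold lower than in ovary. On the BHPF arrays it was dim in all 3 tissues and no difference from liver can be given. *Igf2* was not called between ovary and uterus (adjusted p = 0.132).

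*Igf1r*, the signalling receptor, had a level of −0.96 and −0.94 in liver, 2.24 and 2.15 in ovary, and 2.17 and 2.32 in uterus. It was 8.87-fold lower in liver than in ovary (adjusted p = 0.000908) and 9.14-fold lower than in uterus (adjusted p = 0.000925), and both liver arrays lay below every other array. Ovary and uterus had nearly equal *Igf1r* levels, with a difference of −0.04 (adjusted p = 0.829). Liver, the tissue with the highest *Igf1*, was thus the tissue with the lowest *Igf1r*.

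*Igf2r*, which clears IGF-II, was read by 10 spots of 1 probe and had a level of 2.11 and 2.17 in liver, 1.74 and 1.60 in ovary, and 2.12 and 2.16 in uterus. It was the most even of the 10 genes across tissues. Its level was 1.38-fold higher in liver than in ovary (adjusted p = 0.0469), a call that was lost, with a difference of −0.0837, when all arrays were quantile normalized. Its difference between liver and uterus was −0.00 (adjusted p = 0.983) and between ovary and uterus −0.47 (adjusted p = 0.0839).

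*Igfbp1* encodes a binding protein of liver whose transcription is held down by insulin and raised in fasting. Its level was 2.62 and 3.58 in liver, −1.92 and −1.78 in ovary, and −7.65 and −3.30 in uterus, where the control array was not well above background. It was 30.9-fold higher in liver than in ovary (adjusted p = 0.0269). With the dim control uterus array set at its lowest level well above background, *Igfbp1* was at least 201-fold higher in liver than in uterus, and the model called this difference from the dim value itself (adjusted p = 0.00755). In the same way it was at least 6.50-fold higher in ovary than in uterus, a difference that was not called (adjusted p = 0.101).

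*Igfbp2*, which binds IGF-II more tightly than IGF-I, was read by 2 probes with a mean level of 4.39 and 4.63 in liver, 1.71 and 1.89 in ovary, and −0.08 and 0.24 in uterus. It was 6.55-fold higher in liver than in ovary (adjusted p = 0.000954), 21.6-fold higher in liver than in uterus (adjusted p = 0.000851) and 3.30-fold higher in ovary than in uterus (adjusted p = 0.00509). The 3 tissues were fully separated for this gene, with liver highest and uterus lowest.

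*Igfbp3* encodes the main carrier of IGF in serum, where it forms a ternary complex with the acid-labile subunit. Its level was 1.16 and 0.98 in liver, −2.11 and −1.83 in ovary, and 1.85 and 1.95 in uterus. It was 8.22-fold higher in liver than in ovary (adjusted p = 0.00122), 1.78-fold lower in liver than in uterus (adjusted p = 0.0220) and 14.6-fold lower in ovary than in uterus (adjusted p = 0.00238). Uterus thus held the most *Igfbp3* mRNA and ovary the least.

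*Igfbp4*, a binding protein that inhibits IGF action and is cut by pappalysin, had a level of 3.61 and 3.84 in liver, 0.78 and 0.99 in ovary, and 2.52 and 2.35 in uterus. It was 7.14-fold higher in liver than in ovary (adjusted p = 0.00132) and 2.44-fold higher than in uterus (adjusted p = 0.00707), and 2.92-fold lower in ovary than in uterus (adjusted p = 0.0106). Ovary was again the lowest tissue, and the order of the other 2 was the reverse of that for *Igfbp3*.

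*Igfbp5*, which binds extracellular matrix, had a level of 0.07 and 0.82 in liver, 2.43 and 2.36 in ovary, and 3.17 and 3.06 in uterus. It was 3.86-fold lower in liver than in ovary (adjusted p = 0.00812) and 6.35-fold lower than in uterus (adjusted p = 0.00418), while its difference between ovary and uterus was −0.72 (adjusted p = 0.145). *Igfbp6*, which prefers IGF-II, had a level of −0.53 and 0.35 in liver, 2.09 and 2.17 in ovary, and 3.13 and 3.29 in uterus. It was 4.66-fold lower in liver than in ovary (adjusted p = 0.00498) and 9.87-fold lower than in uterus (adjusted p = 0.00227), with a difference of −1.08 between ovary and uterus (adjusted p = 0.0573). Like *Igf1r*, both *Igfbp5* and *Igfbp6* were thus lowest in liver.

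In all, the model called 10 of the 10 genes between liver and ovary, where it called 58.5% of all tested features. The call of *Igf2* rests on dim liver values, which leaves 9 genes with a difference that can be read over both treatments, 6 higher and 3 lower in liver. Between liver and uterus it called 9 of 10, against 51.9% of all features, and without *Igf2* 8 can be read, 4 higher and 4 lower in liver. Of these *Igfbp1* can be read only as a bound, since it was dim in control uterus. Between ovary and uterus 3 of 10 differed, *Igfbp2* higher and *Igfbp3* and *Igfbp4* lower in ovary, against 23.1% of all features. For the BHPF term, which asks for a difference common to the 3 tissues, 0 of 10 members and 0 of 38429 features (0%) passed an adjusted p of 0.05. The 3 tissues serve as the replicates of this term, and the arrays of a treatment may share mice. The members' adjusted p values for BHPF ran from 0.760 to 0.972, and 0 members and 2042 features (5.31%) had an unadjusted p below 0.05.

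Within each tissue a ratio of at least 2-fold was the threshold, and it was met by 0 of 9 members in liver, 0 of 10 in ovary and 1 of 10 in uterus. Of all evaluated genes 4.93% met it in liver (766 of 15549), 1.27% in ovary (215 of 16880) and 3.29% in uterus (532 of 16183). The median ratio of the members was 0.23 in liver, 0.07 in ovary and 0.07 in uterus. The single member past the threshold was *Igfbp1* in uterus. At 1.5-fold the counts were 3 of 9 in liver (12.0% of all genes), 0 of 10 in ovary (3.67%) and 1 of 10 in uterus (6.88%), and the liver genes were *Igfbp1*, *Igfbp5* and *Igfbp6*.

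**Figure D2:**
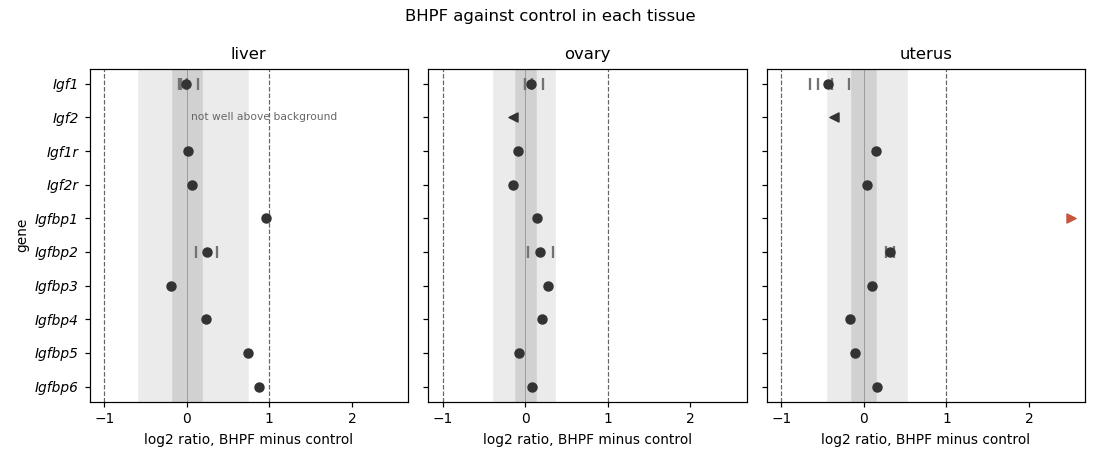
Ratio of BHPF to control of each of the 10 genes in each tissue, with triangles for bounds, small bars for single probes and dashed lines at 2-fold. Grey bands span the quartiles and the 5th to 95th percentile of all evaluated genes.

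In liver the ratio of *Igfbp1* was 0.96 (1.94-fold), and 3.51% of all genes had a ratio as high. *Igfbp6* had a ratio of 0.88 (1.84-fold) and *Igfbp5* of 0.75 (1.68-fold), so the 3 largest liver ratios all lay short of 2-fold. These 3 genes encode binding proteins, as do most of the members evaluated in liver. Markers of other cells differed between the same 2 liver arrays. The neutrophil markers, with *S100a9* the most intense on both arrays and none dim, were at least 2-fold lower with BHPF in 5 of 5 and summed to 34.03 and 6.14. The smooth muscle markers, with *Tagln* the most intense and none dim, summed to 7.57 and 5.98 with 0 of 6 past 2-fold and a median ratio of −0.40. Past 2-fold in liver were also *Adgre1* (−1.08) of the 3 macrophage markers, whose sums were 46.6 and 37.1, and *Cfd* (−1.63) of the 4 adipocyte markers evaluated, whose sums were 12.4 and 9.07. Higher past 2-fold, as bounds over a dim control array, were *Zp3* (1.65) of the 3 oocyte markers evaluated and *Emx2* (1.24). Of *Emx2*, *Hoxa10* and *Hoxa11* only *Emx2* was evaluated in liver. The part of these lists in the liver ratios of the members was not tested. The remaining binding proteins had liver ratios of 0.24 for *Igfbp2*, 0.23 for *Igfbp4* and −0.19 for *Igfbp3*. *Igf1* had a liver ratio of 0.00, *Igf1r* of 0.02 and *Igf2r* of 0.06, and *Igf2* was not well above background on either liver array. The liver ratios depended on the scaling. When the 50th percentile took the place of the 75th, the median of all liver genes shifted by −0.30, and the ratios became 0.64 for *Igfbp1*, 0.56 for *Igfbp6* and 0.43 for *Igfbp5*. *Igf1* (−0.32), *Igf1r* (−0.30), *Igf2r* (−0.25), *Igfbp2* (−0.07), *Igfbp3* (−0.50) and *Igfbp4* (−0.08) then all had ratios below 0 in liver.

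In ovary the ratios were 0.07 for *Igf1*, −0.09 for *Igf1r* and −0.14 for *Igf2r*, and −0.15 for *Igf2* as a bound. Among the ovarian binding proteins they were 0.14 for *Igfbp1*, 0.18 for *Igfbp2*, 0.28 for *Igfbp3*, 0.21 for *Igfbp4*, −0.08 for *Igfbp5* and 0.08 for *Igfbp6*. The ovary had the narrowest spread of ratios over the 10 genes. The neutrophil markers were at least 2-fold lower with BHPF in ovary too, in 4 of 5, with sums of 2.70 and 0.4003, *S100a9* the most intense and none dim. Past 2-fold in ovary were also *Adipoq* and *Cfd*, both higher, of the 5 adipocyte markers evaluated (sums 3.00 and 3.72), *Foxj1* (−1.16) of the 2 oviduct markers (sums 0.673 and 0.385) and *Adgre1* (−1.20) of the 3 macrophage markers (sums 10.6 and 7.43). The part of these lists in the ovarian ratios of the members was not tested.

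In uterus *Igf1* had a ratio of −0.44 (1.36-fold lower), and 4.81% of all genes had a ratio as low. Under the headings of the authors' table its ratio was 0.44, and 5.89% of all genes had a ratio as high. Its 4 probes gave −0.65, −0.55, −0.38 and −0.17, all below 0, with an SD of 0.21. On the BHPF uterus array the 2 spots of the probe with the lowest ratio read 1.07 and 2.03, and without that probe, an alternative chosen after the data had been seen, the ratio was −0.37. The adipocyte markers differed on the same uterus arrays, with 3 of 4 evaluated at least 2-fold lower with BHPF and sums of 3.28 and 0.862. *Fabp4* was the most intense of these 6 genes on both arrays, *Lep* and *Plin1* were not well above background on either and *Cidec* was not with BHPF. Of the neutrophil markers 2 of 5 were at least 2-fold lower, with sums of 16.6 and 13.9, *Ltf* the most intense and none dim. Past 2-fold in uterus were also *Clec4f* (1.21) of the 3 macrophage markers (sums 12.6 and 12.5) and *Cela1* (−1.46), the only pancreas marker evaluated. The part of these lists in the uterine *Igf1* ratio, which was short of the 2-fold threshold, was not tested. The other uterine ratios were −0.36 for *Igf2* as a bound, 0.15 for *Igf1r*, 0.03 for *Igf2r*, 0.32 for *Igfbp2*, 0.10 for *Igfbp3*, −0.17 for *Igfbp4*, −0.11 for *Igfbp5* and 0.16 for *Igfbp6*.

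Uterine *Igfbp1*, at −7.65 without and −3.30 with BHPF, had a ratio of at least 2.50 (at least 5.68-fold), and 0.865% of all genes had a ratio as high. With its own dim control value in place of the bound the ratio was 4.35. When probes had to be well above background on both arrays *Igfbp1* was not evaluated, and 0 of 8 members met the threshold. Under the headings of the authors' table the ratio was −4.35, since those columns hold each other's arrays, and 0.390% of all genes then had a ratio as low. This ratio uses the dim value itself and not a bound, so its share cannot be set against the 0.865%.

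The hepatocyte markers moved with uterine *Igfbp1*. In uterus 10 of 10 were at least 2-fold higher with BHPF, with a median ratio of 4.40 and a range of 2.65 to 5.49. The most intense of them was *Ahsg* in control (0.705 relative to the 75th percentile) and *Alb* with BHPF (10.3), and *Cps1* was not well above background in control uterus. The excess of *Igfbp1* on the BHPF uterus array was 1.57% of its control liver level and 0.809% of its BHPF liver level. Over the 466 probes (326 genes) at least 64-fold brighter in control liver than in control ovary and uterus, the median excess was 0.657% (quartiles 0.341% and 1.30%), and 20.4% of them had an excess as high as that of *Igfbp1*. The 11 probes of the hepatocyte markers gave 0.897% to 15.6%, with a median of 6.33%. In ovary the median excess over the 466 probes was 0.0229%. After the median share had been subtracted the uterine ratio of *Igfbp1* was at least 1.77, and with the 885 probes at least 16-fold brighter in liver at least 1.67. With the upper quartile of 1.30% subtracted *Igfbp1* was not well above background on either uterus array, and 0 of 9 members met the threshold. The hepatocyte median of 6.33% came to more than the whole *Igfbp1* signal of the BHPF uterus array. After it had been subtracted *Igf1* and *Igfbp2* were the members past the threshold, with ratios of −1.09 and −3.79. These last 3 shares were chosen after the data had been seen, and whether uterine *Igfbp1* met the threshold depended on the share taken. The *Igfbp2* probes were 29.0-fold and 17.0-fold brighter in control liver than in control uterus. Their excess on the BHPF uterus array was 0.987% and 1.22% of their control liver level. Of the 466 probes 32.4% and 26.6% had an excess as high. The part of hepatocyte RNA in the uterine ratios of *Igfbp1*, *Igfbp2* and the other members was not tested.

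**Figure D3:**
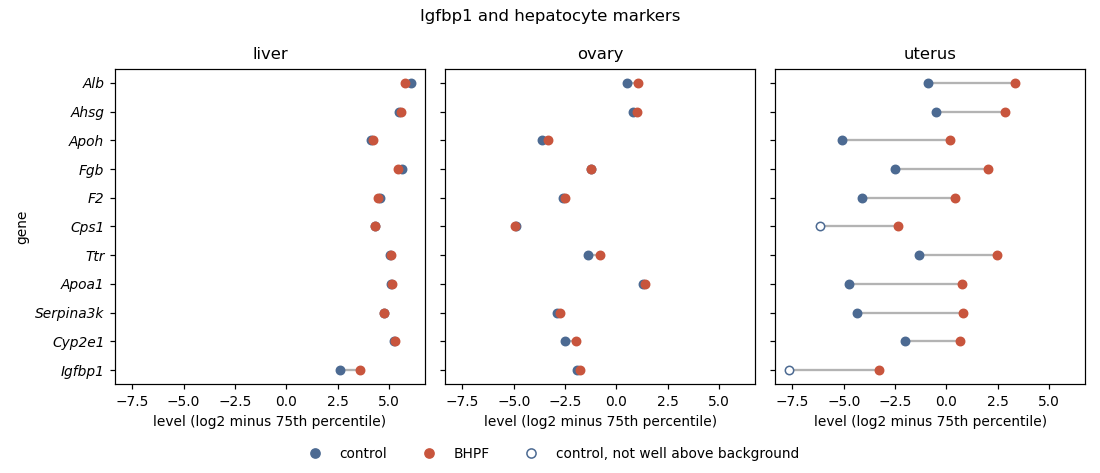
Levels of the hepatocyte markers beside *Igfbp1* on the 6 arrays.

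Partners of the 10 genes were read in lists written for the pathway. *Igfals*, which encodes the acid-labile subunit that joins *Igfbp3* product and ligand in serum, had a level of 2.73 and 2.51 in liver and was not well above background in ovary (−6.39 and −6.36) or uterus (−6.38 and −5.05). As a bound *Igfals* was at least 403-fold higher in liver than in ovary and at least 265-fold higher than in uterus. The model called these differences from the dim values themselves (adjusted p = 0.00101 for ovary and 0.00118 for uterus). *Ghr*, the growth hormone receptor that drives hepatic *Igf1*, had a level of 3.61 and 3.50 in liver, 0.58 and 0.61 in ovary, and 0.70 and 0.63 in uterus. It was 7.80-fold higher in liver than in ovary (adjusted p = 0.000896) and 7.44-fold higher than in uterus (adjusted p = 0.000930), so like *Igf1* it was highest in liver. With BHPF 0 of 10 genes of the growth hormone axis changed 2-fold in any tissue, and *Socs3*, with levels of 1.45 and 0.60 in liver, had the lowest liver ratio of them at −0.85.

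*Stc2*, whose product inhibits the pappalysin that cuts the *Igfbp4* product, had a level of −4.73 and −4.11 in liver, −0.74 and −1.20 in ovary, and 0.76 and 0.53 in uterus. Its log2 difference between liver and ovary was −3.45 (adjusted p = 0.00295), and it was 33.4-fold lower in liver than in uterus (adjusted p = 0.00152). *Pappa* itself had a level of 0.43 and 0.53 in liver, −0.11 and −0.08 in ovary, and 1.30 and 1.72 in uterus, and was 2.05-fold lower in liver than in uterus (adjusted p = 0.0108). *Igfbp4* and the enzyme that cuts its product were thus each lowest in ovary. *Htra1*, a protease for the *Igfbp5* product, had a level of −0.10 and −0.12 in liver, 3.26 and 3.33 in ovary, and 2.92 and 2.95 in uterus. It was 10.6-fold lower in liver than in ovary (adjusted p = 0.000821) and 8.26-fold lower than in uterus (adjusted p = 0.000890), and like *Igfbp5* was lowest in liver. None of these protease genes had a ratio of 2-fold with BHPF.

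*Insr*, the insulin receptor and the nearest relative of *Igf1r*, had a level of −0.16 and −0.32 in liver, −1.23 and −1.16 in ovary, and −1.31 and −1.10 in uterus. It was 1.94-fold higher in liver than in ovary (adjusted p = 0.0112) and 1.95-fold higher than in uterus (adjusted p = 0.0117), the opposite order to *Igf1r*. Among the receptor substrates *Irs2* met the threshold in liver, with levels of 0.52 and 1.53 and a ratio of 1.002, and it was the only 1 of 8 evaluated genes there. This was at the threshold itself, since the ratio of *Irs2* was 0.69 with the 50th percentile and fell just short of 2-fold with the 75th percentile of probes well above background on all arrays. No gene of the PI3K and AKT list (17 evaluated) or of the MAP kinase list (7 evaluated) met it in any tissue. Of other genes whose products have an IGFBP-type domain, 1 of 9 evaluated met it in liver, 0 of 10 in ovary and 0 of 9 in uterus. That gene was *Esm1*, with liver levels of −0.63 and −2.12 and a ratio of −1.49. Insulin holds down transcription of *Irs2* and *Igfbp1* in liver, and also that of the 4 genes that follow. *Pck1* (levels 4.72 and 4.69) and *G6pc* (4.05 and 4.17) had liver ratios of −0.02 and 0.13. *Ppargc1a* (−0.06 and −0.65) and *Tat* (4.73 and 4.39) had liver ratios of −0.59 and −0.33. Insulin was not measured, and its part in these ratios was not tested. In uterus *Tat*, at −4.03 and −2.23, had a ratio of 1.80 and was past the threshold, as was *Igfbp1*. *Tat* was also called higher in liver than in uterus (adjusted p = 0.00271), and the hepatocyte markers were higher on the same BHPF uterus array. The uterine ratios of *Tat* and *Igfbp1* thus moved with those markers, whose part in them was not tested.

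The genes nearest to each member over the 6 arrays were sought after each gene's mean had been removed. The search covered 13710 genes called well above background on all 6 arrays. *Oxsm* (root mean square difference 0.09) and *Vwa8* (0.10) were nearest to *Igf1*, *Slc7a1* (0.08) and *Sorcs2* (0.08) to *Igf1r*, and *Nptn* (0.05) and *Klk10* (0.05) to *Igf2r*. For *Igf2* they were *Pla2g2d* (0.14) and *Ubxn11* (0.16), with 4 of the 6 *Igf2* values not well above background. *Igfbp1* had no close neighbour among them, the smallest differences being 0.75 (*Apoa1*) and 0.88 (*Fam25c*), and these use its dim control uterus value. Genes dim in control uterus, as *Igfbp1* was, were left out of the search, so it cannot show whether *Igfbp1* has a closer neighbour. The nearest to *Igfbp2* were *Gstm6* (0.11) and *Htatip2* (0.15), to *Igfbp3* *Anpep* (0.22) and *Ap1s3* (0.25), and to *Igfbp4* *Arl4d* (0.10) and *Palmd* (0.10). The nearest to *Igfbp5* were *Pheta2* (0.11) and *Pla2g2d* (0.12), and to *Igfbp6* *Kcnd3* (0.06) and *Plscr4* (0.08). *Vwa8*, *Pla2g2d*, *Sorcs2* and *Kcnd3* each include 1 probe that was dim on some array. These patterns mostly follow tissue, which was the main difference between the arrays.

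Neighbouring genes of the family did not share a tissue order. *Igfbp1* and *Igfbp3* lie side by side on chromosome 11 with 0 protein-coding genes between them, and *Igfbp1* was highest in liver while *Igfbp3* was highest in uterus. *Igfbp2* and *Igfbp5* lie side by side on chromosome 1, and *Igfbp2* was highest in liver while *Igfbp5* was lowest there. *Igf2* lies beside *Ins2* on chromosome 7.

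FOXO factors, which insulin signalling keeps out of the nucleus, bind the core TGTTTTG and act on *Igfbp1* and *Irs2*. Read on the opposite strand the core is CAAAACA. In RefSeq windows of 300 bases, from 250 before to 50 after the gene start, *Igfbp1* had 1 copy, written as CAAAACA on the printed strand and starting 108 bases before the gene start, and *Irs2* had 1 copy of TGTTTTG starting 37 bases before it. The core was present in 1 of the 14 windows of the 10 members (7.14%) and in 2064 of all 32851 windows (6.28%). Of 6 genes read from the list of insulin-responsive genes, 1 had the core. A match describes the sequence and binding was not measured. The windows, in GRCm38.p6, were chr11:7197537-7197836 on the + strand for *Igfbp1* and chr8:11008880-11009179 on the − strand for *Irs2*, with the core in capitals.

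Igfbp1: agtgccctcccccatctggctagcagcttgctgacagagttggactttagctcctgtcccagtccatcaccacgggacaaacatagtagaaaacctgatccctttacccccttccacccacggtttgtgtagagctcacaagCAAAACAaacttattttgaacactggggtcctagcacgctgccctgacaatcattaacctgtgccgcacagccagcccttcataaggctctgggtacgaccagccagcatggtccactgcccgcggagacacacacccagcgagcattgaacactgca

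Irs2: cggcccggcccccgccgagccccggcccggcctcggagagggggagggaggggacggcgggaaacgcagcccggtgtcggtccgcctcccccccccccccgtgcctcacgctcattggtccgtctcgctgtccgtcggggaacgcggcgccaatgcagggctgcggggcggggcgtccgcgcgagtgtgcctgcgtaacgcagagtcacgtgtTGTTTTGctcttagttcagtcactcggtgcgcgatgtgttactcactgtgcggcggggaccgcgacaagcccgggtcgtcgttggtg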

How the data were processed

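The scanner files hold the intensity of each spot from Agilent Feature Extraction, version 11.5.1.1 per the file headers and 9.1 per the submitters' processing notes, background-subtracted and on a linear scale. A second deposited table gives log2 values, and the authors' columns were each the log2 of the scanner intensity minus 1 constant (36239 to 41317 single-spot probes per pair, 100% within 0.001). Control spots and outlier spots were dropped, replicate spots were averaged as log2, and each array was shifted by the 75th percentile of its 55681 probes. Evaluation in a tissue required a well-above-background call on either array, and genes took the mean of their probes. Symbols came from probe accessions matched to RefSeq for GRCm38.p6, for 26762 of 55681 probes (48.1%), and no probe matched here for *H19*, *Insl3* or *Cd68*. The limma model took probes called well above background on any of the 6 arrays, averaged by gene where a symbol was known (38429 features), and p was adjusted over all of them. The normexp alternative used median intensity and median local background with an offset of 50, as the files hold no mean signal. The 10 members, the pathway lists and the marker lists were chosen with earlier results from these data known. Genes named beyond the members are those of the lists and the 2 nearest genes of each member. Python 3.11.15, pandas 2.3.3, numpy 2.4.6, matplotlib 3.10.9, R 4.3.3 and limma 3.58.1 were used.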

Additional observations from a re-analysis of the deposited data

Results flagged for a closer look

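*Adipoq* and *Cfd*, 2 of the 6 adipocyte markers, differed in opposite directions between ovary and uterus under the labels of the scanner files, and these differences were not tested. *Adipoq* had a ratio of 1.35 in ovary, −0.15 in liver and −3.31 in uterus. *Cfd* had a ratio of 2.05 in ovary, −1.63 in liver and −2.71 in uterus. Under the headings of the authors' table the uterine ratios were 3.31 and 2.71, on the same side as those in ovary. In ovary *Fabp4*, the most intense of the 6, had a ratio of 0.04, *Plin1* of −0.07 and *Cidec*, in part as a bound, of 0.96. The adipocyte markers summed to 3.00 and 3.72 in ovary and to 3.28 and 0.862 in uterus.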

How the results depend on the processing

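Of 423 recomputed member ratios 376 lay within 0.13 of the value given, and 28 changed sign, in 20 of the 29 values. Of those past 2-fold, uterine *Igfbp1* changed sign under the headings of the authors' table, which turn every uterine ratio. Its ratio there was −4.35, from the dim value itself. Of 420 recomputed tissue differences 372 stayed called or stayed not called, 30 lost a call, 17 gained a call and 1 lost its call with a change of sign. That was *Igf2r* between liver and ovary, −0.0837 after quantile normalization of all arrays, and 9 changed sign in all. For BHPF no member was called in 90 recomputed values, of which 18 changed sign. The number of members changed 2-fold in liver was 0 and became 3 at 1.5-fold. In uterus it was 1 and became 0 when probes had to be well above background on both arrays or the upper quartile of the liver share was subtracted, and 2 (*Igf1* and *Igfbp2*) when the hepatocyte median was. Members that differed between ovary and uterus numbered 3, and 6 with normexp background correction, 5 with quantile normalization and 6 with an intensity trend. With single arrays left out, 6 to 9 members differed between liver and ovary, 7 to 9 between liver and uterus, 1 to 6 between ovary and uterus, and 0 for BHPF.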
